A study of Mus musculus with 34 samples.

Results

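Mpp6, Gsdme, Vps54, Cd59a, Tmem132c and Itgb2 are 6 of the 21951 protein-coding genes of GENCODE M21, each with a region in or beside it whose H3K9me3 differed between mouse embryonic stem cell lines that carry different versions of a chromosome 13 segment. The genes were chosen from those measured H3K9me3 differences, so H3K9me3 in the congenic comparisons, and in the parental lines of the same libraries, is given here as a description with no test. All regions of the 4 count tables that overlap a gene body extended by 10 kb on both sides were taken, which gave 106 of the 248336 regions in the list shared by 3 tables and 45 of the 96988 regions in the list of the remaining table. On GRCm38, Mpp6 lies at chr6:50110241-50198939 on the plus strand and Gsdme at chr6:50188888-50263862 on the minus strand, Vps54 at chr11:21239281-21321136, Cd59a at chr2:104095801-104115354, Tmem132c at chr5:127241808-127565793 and Itgb2 at chr10:77530252-77565708, all on the plus strand, so none is on chromosome 13. The changing region of a gene is the region of its window with the smallest adjusted p in either congenic H3K9me3 comparison. Mpp6 and Gsdme overlap and share theirs, so the 6 genes have 5 changing regions. In those comparisons 8 regions of the 6 windows were called on the B6 background, where 1.69% of all regions were, and 7 on the D2 background, where 2.2% were, counts that the choice of genes fixed.

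H3K9me3, trimethylation of lysine 9 on histone H3, marks heterochromatin and is bound by HP1 proteins. In mouse embryonic stem cells much of it is placed at specific sequences by KRAB zinc finger proteins, which bring in TRIM28 and the methyltransferase SETDB1. H3K27ac, acetylation of lysine 27, marks active promoters and enhancers. Mpp6 encodes a membrane-associated guanylate kinase scaffold of the p55 family, and Gsdme encodes gasdermin E, a pore-forming protein activated by caspase cleavage. Vps54 is a subunit of the GARP complex, which tethers vesicles that return from endosomes to the Golgi. Cd59a is a surface protein that blocks the complement membrane attack complex, Itgb2 is the beta2 chain of the leukocyte integrins, and Tmem132c is a single-pass membrane protein.

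Both marks were measured by ChIP-seq in 4 genotypes. B6 is C57BL/6J, D2 is DBA/2J, B6-13D2 is B6.D2-(rs30079041-rs51756099)/Bakr (also QJ), with a D2 segment of chromosome 13 on a B6 background, and D2-13B6 (also XE) is the reciprocal line, with a B6 segment on a D2 background. The sample labels name that line D2.B6-(rs29224292-rs13469455)/Bakr, while the series description gives rs51756099 as its end marker, and the segment ends were not used here. H3K9me3 was precipitated with an Active Motif antibody and H3K27ac with an abcam antibody in the separate lines and a Cell Signaling Technology antibody in the repeated libraries. All lines were grown in serum with LIF and the inhibitors PD0325901 and CHIR99021. For each mark, 3 B6 and 3 D2 libraries came from separate lines and are biological replicates, 1 B6 and 1 D2 line of which also gave the repeated libraries described next. A further series, called the repeated libraries, took several libraries from 1 line of each genotype as technical replicates, so that its tests compare 4 lines, not 4 genotypes: for H3K9me3 these were 3 B6, 2 B6-13D2, 3 D2-13B6 and 2 D2 libraries, and for H3K27ac 3 per line. Of the H3K27ac libraries, 1 pair per line had a chi-square per degree of freedom under 1 (0.905 to 0.967) and was summed as 1 sample, leaving n = 2 per line. The pairs kept apart had 1.005 to 1.027 in B6, B6-13D2 and D2, close to that limit, so n = 2 rests on the limit of 1, and the fit with every library separate is among the alternatives. All p-values from the repeated libraries therefore measure the spread between technical replicates. The congenic and parental comparisons share libraries.

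Counts in regions ranged from 1487862 to 2559262 per H3K9me3 library, and from 8735674 to 18272793 per H3K27ac library, so low H3K9me3 levels rest on few reads. In either mark, replicate 1 of D2-13B6 differed from the other 2 more than those differed from each other, with a chi-square per degree of freedom of up to 2.806 in its pairs. Promoter H3K27ac of 7 pluripotency genes (Pou5f1, Sox2, Nanog and others) summed to 558 to 626 CPM in B6, 666 to 713 CPM in B6-13D2, 744 to 779 CPM in D2-13B6 and 712 to 783 CPM in D2 of the repeated libraries, so B6 was lowest. Endoderm genes, 2 of 4 with a region, summed to 6.72 to 8.52 CPM in B6, 5.96 to 6.37 CPM in B6-13D2, 9.1 to 10.8 CPM in D2-13B6 and 9.23 to 9.89 CPM in D2. The sum of 3 mesoderm genes overlapped between B6 and D2 in the repeated libraries (4.7 to 6.27 and 5.95 to 8.64 CPM), but not in the separate lines (8.1 to 9.25 and 11.3 to 13.9 CPM). The sum of 3 neural genes was 5.12 to 6.74 CPM in B6-13D2 and 10.6 to 13.1 CPM in D2-13B6. The neural sum was higher in D2 than in B6, at 12.2 to 12.4 against 7.06 to 7.17 CPM in the repeated libraries and 19.0 to 21.5 against 10.7 to 15 CPM in the separate lines, where 2 of the 3 genes had a region. The part of these sums in the H3K27ac differences was not tested. The 3 blood genes had no promoter region in the lists. Levels are in CPM, read counts scaled to a common library total after TMM adjustment. A fold change is positive when the level is higher with the D2 segment or in D2.

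The changing regions share little sequence. The longest stretch that any pair of them has in common, on either strand, is 12 bases. The Mpp6/Gsdme and Tmem132c regions are shown because both contain tandem repeats, which the choice of genes did not use. In the Mpp6/Gsdme region (chr6:50196338-50197829, GRCm38), 24.9% of the bases start a 12-base word that occurs there more than once, a share reached by 4.09% of the 86874 regions tested for H3K9me3. Its commonest word, in capitals, occurs 10 times at a median spacing of 39 bases. The Tmem132c region (chr5:127277436-127278513) has 48.7% of such bases, a share reached by 1.37% of regions, and its commonest word occurs 4 times at a median spacing of 201 bases. How reads that match several places were treated is not given in the sources used here. The stretches below are on the plus strand of GRCm38.p6, at chr6:50196870-50197169 for the first, which overlaps no coding sequence, and chr5:127277436-127277735 for the second, and the capitals mark the commonest word.
Mpp6/Gsdme: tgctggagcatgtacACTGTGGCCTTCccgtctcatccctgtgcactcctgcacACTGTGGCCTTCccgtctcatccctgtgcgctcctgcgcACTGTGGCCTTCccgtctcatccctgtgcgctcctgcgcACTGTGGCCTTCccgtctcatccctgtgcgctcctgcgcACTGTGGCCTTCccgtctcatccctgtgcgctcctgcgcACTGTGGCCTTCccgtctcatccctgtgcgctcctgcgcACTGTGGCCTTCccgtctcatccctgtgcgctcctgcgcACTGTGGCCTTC
Tmem132c: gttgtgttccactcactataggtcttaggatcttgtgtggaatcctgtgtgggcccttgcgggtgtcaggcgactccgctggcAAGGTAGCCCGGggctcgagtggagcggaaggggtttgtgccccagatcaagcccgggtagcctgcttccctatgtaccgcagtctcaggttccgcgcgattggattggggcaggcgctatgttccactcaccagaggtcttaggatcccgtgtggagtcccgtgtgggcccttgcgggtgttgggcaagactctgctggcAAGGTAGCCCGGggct

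The other changing regions hold fewer repeated words than these, at 1.32% for Vps54 (chr11:21256212-21257208), 0.732% for Cd59a (chr2:104095512-104097708) and none for Itgb2 (chr10:77570084-77570636), beside a median of 0.155% over the regions tested. The Vps54 and Cd59a shares are above that median and are reached by 30.1% and 37.2% of regions. All 3 regions have fewer CpG for their base composition than the median region: the observed over expected ratio is 0.17, 0.24 and 0.134, beside a median of 0.272. The middle of the Itgb2 region and the bases in front of the Cd59a start are shown for comparison with the tandem repeats above, with CpG in capitals. The Itgb2 stretch is chr10:77570210-77570509 and holds 2 CpG, and the Cd59a stretch, from the RefSeq promoter table (GRCm38.p6), is chr2:104095551-104095752 and holds 0.
Itgb2: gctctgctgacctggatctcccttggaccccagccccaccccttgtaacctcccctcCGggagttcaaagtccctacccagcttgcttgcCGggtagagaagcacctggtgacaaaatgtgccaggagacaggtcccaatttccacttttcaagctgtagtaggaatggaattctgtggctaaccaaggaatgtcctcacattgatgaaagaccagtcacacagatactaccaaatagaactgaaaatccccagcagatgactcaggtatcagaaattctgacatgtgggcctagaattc
Cd59a: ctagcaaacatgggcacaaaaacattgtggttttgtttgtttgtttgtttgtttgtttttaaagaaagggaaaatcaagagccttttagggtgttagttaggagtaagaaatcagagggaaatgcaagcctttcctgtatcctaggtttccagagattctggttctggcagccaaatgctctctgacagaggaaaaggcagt

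At the region shared by Mpp6 and Gsdme, H3K9me3 was high in lines with the B6 segment and near 0 in lines with the D2 segment. The region covers a coding exon of Mpp6, 86842 bp from its start, and an intron of Gsdme. In the repeated libraries it was 33.4, 37.3 and 28.7 CPM in B6 and 28.8, 12.7 and 13.3 CPM in D2-13B6, against 2.05 and 1.35 CPM in B6-13D2 and 0 and 3.88 CPM in D2. No library with the D2 segment reached the lowest library with the B6 segment. Counts were 134 over the 3 B6 libraries and 5 over the 2 B6-13D2 libraries, a depth-adjusted ratio of 19.5 with an exact 95% interval of 8.13 to 60.9 that covers counting error only. The log2 fold change was -4.21 ± 0.45 (SE) on the B6 background and -3.03 ± 0.53 on the D2 background. The higher value of D2-13B6 was replicate 1, the library that stood apart, and the other 2 still lay above both D2 libraries.

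The libraries of the separate lines were not used in the choice of genes, although 1 line of each strain, B6 replicate 3 and D2 replicate 2, is the line of the repeated libraries. They gave 57.0, 87.0 and 58.5 CPM in B6 and 2.47, 4.37 and 0.752 CPM in D2 at this region. All 3 B6 lines lay above all 3 D2 lines. H3K9me3 was 24.5-fold lower in D2, a log2 fold change of -4.61 ± 0.33 (adjusted p = 1.78e-14, edgeR's quasi-likelihood test with Benjamini-Hochberg adjustment over 44797 regions). The 3 D2 lines had 11 reads there in all, so the region was also tested behind a filter that ignores strain, a mean of 20 or more counts over the 6 libraries, where the value was -4.53 (adjusted p = 7.36e-12, edgeR). For this mark and comparison, a test is printed only for regions that pass that filter too, and other regions are described by their values. Without any 1 of the 6 libraries it was -5.28 to -4.16. Of the 28 regions of the 6 windows that could be tested in this comparison, 17 passed, beside 34.7% of all regions tested, with 11 higher and 6 lower in D2, beside 17.3% and 17.4%. A region high in 1 strain could pass the filter on low counts through that strain alone, so these counts are a description.

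Cd59a showed the same direction, and here the changing region is the promoter itself and reaches into the untranslated region. In the repeated libraries H3K9me3 was 56.7, 52.5 and 61.2 CPM in B6 and 45, 35.9 and 22.5 CPM in D2-13B6, against 4.79 and 6.77 CPM in B6-13D2 and 8.06 and 6.98 CPM in D2. The groups with and without the D2 segment did not overlap, and the D2-13B6 libraries all lay below the B6 libraries. Log2 fold changes were -3.27 ± 0.31 on the B6 background and -2.16 ± 0.34 on the D2 background. The region took 57.5% ± 2.18 (SD, n = 3) of the H3K9me3 counts of the whole Cd59a window in B6 and 14.3% ± 2.91 (SD, n = 2) in B6-13D2.

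Among the separate lines, Cd59a promoter H3K9me3 was 94.0, 66.3 and 73.8 CPM in B6 and 4.94, 6.86 and 9.02 CPM in D2. It was 11-fold lower in D2 (log2 fold change -3.46 ± 0.25, adjusted p = 2.79e-14, edgeR), and the value was -3.37 behind the filter that ignores strain (adjusted p = 2.18e-12, edgeR). The next region, chr2:104098511-104099684 in an intron 2.49 kb away, was lower as well, at 9.51, 18.5 and 19.5 CPM in B6 and 4.11, 6.86 and 4.51 CPM in D2 (-1.56 ± 0.38). Farther off, chr2:104109215-104110499, 13.25 kb away, had values that overlapped between the strains (0.31 ± 0.36).

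Vps54 had the opposite direction. Its changing region lies in an intron, 17429 bp from the start, and H3K9me3 there was high in the lines with the D2 segment and low in the others: 41.7 and 45.4 CPM in B6-13D2 and 32.2 and 21.7 CPM in D2, against 4.36, 2.28 and 1.47 CPM in B6 and 4.5, 4.48 and 3.51 CPM in D2-13B6. The groups did not overlap. The log2 fold change was 3.96 ± 0.35 on the B6 background and 2.66 ± 0.37 on the D2 background. The region held 5.37% ± 1.7 (SD, n = 3) of the window's H3K9me3 counts in B6 and 44.6% ± 1.42 (SD, n = 2) in B6-13D2.

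Among the 5 changing regions, the estimated strain difference in the separate lines was largest at Vps54. Over the alternatives its log2 size overlapped that of Mpp6/Gsdme, at 4.58 to 5.35 against -5.28 to -4.16, and the order was not tested. H3K9me3 at the Vps54 region was 4.23, 1.09 and 5.13 CPM in B6 and 109, 115 and 129 CPM in D2. The fold was 32.5 (5.02 ± 0.29, adjusted p = 4.43e-17, edgeR), and the log2 value was 5.11 behind the filter that ignores strain (adjusted p = 1.37e-14, edgeR). The 3 neighbouring intronic regions downstream were also higher in D2, with smaller differences at greater distance. At 1.26 kb the log2 fold change was 2.53 ± 0.33 (adjusted p = 4.58e-08, edgeR, and 6.07e-08 behind the filter that ignores strain), at 2.4 kb it was 1.70 ± 0.34 and at 5.79 kb it was 1.32 ± 0.27 (adjusted p = 0.000135, edgeR). In each of these 3 regions the lowest D2 line lay above the highest B6 line.

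Itgb2 also had more H3K9me3 with the D2 segment, at a region downstream of the gene, 40108 bp from its start and outside annotated genes. Levels were low throughout: 10.9 and 13.5 CPM in B6-13D2 and 14.3 and 11.6 CPM in D2, against 0.726, 0.761 and 0.737 CPM in B6 and 1.8, 2.99 and 1.4 CPM in D2-13B6. Each B6 library had 1 read there, so the ratio of B6-13D2 to B6 (36 against 3 counts) was 16.5 with an exact 95% interval of 5.22 to 83.9. On the D2 background the log2 fold change was 2.59 ± 0.53. In the separate lines it was 0, 4.35 and 1.03 CPM in B6 and 17.3, 18.7 and 21.8 CPM in D2, a log2 fold change of 3.38 ± 0.50. The adjoining region, chr10:77569545-77569953, had 2.11, 1.09 and 0 CPM in B6 and 21.4, 21.2 and 21.8 CPM in D2. Over the 3 B6 lines there were 5 reads at the changing region and 3 at the adjoining one.

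Tmem132c differed from the others: H3K9me3 at its changing region, in an intron of Tmem132c and of Tmem132cos, was low in 1 line only. It was 23.2, 30.4 and 31.7 CPM in B6, 34.2 and 32.5 CPM in B6-13D2 and 33.1 and 23.3 CPM in D2, but 2.7, 2.99 and 2.11 CPM in D2-13B6. The 3 D2-13B6 libraries lay below every other library, replicate 1 included, and the other lines had close values. The log2 fold change was 0.23 ± 0.24 on the B6 background and 3.39 ± 0.41 on the D2 background. The separate lines, with 40.1, 34.8 and 33.8 CPM in B6 and 33.7, 44.3 and 48.1 CPM in D2, overlapped (0.22 ± 0.20, adjusted p = 0.431, edgeR).

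**Figure D1:**
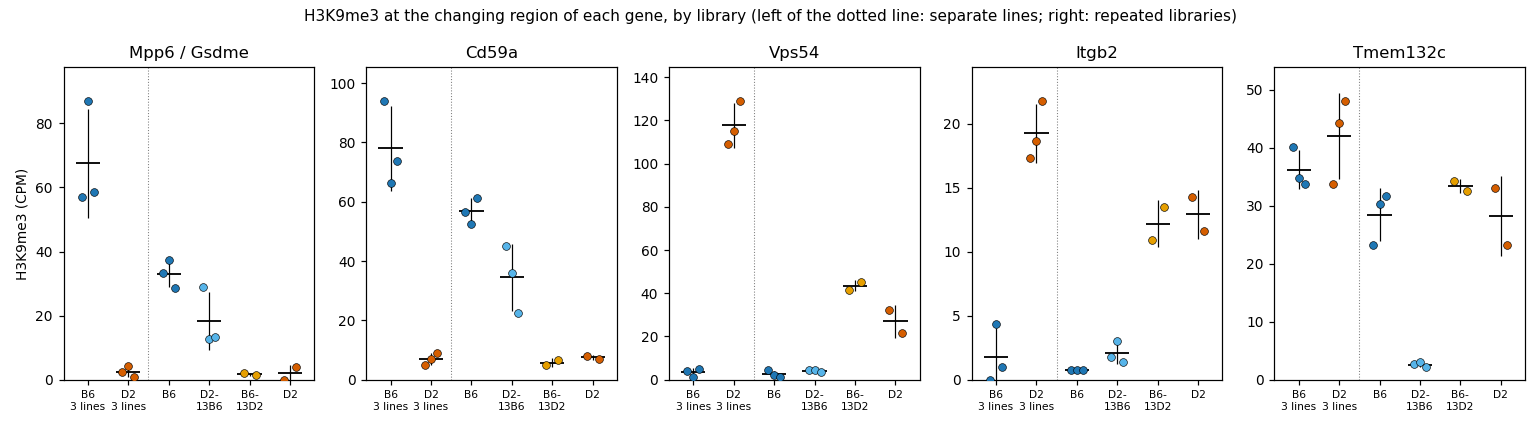
H3K9me3 in CPM at the 5 changing regions, 1 panel per gene with its own axis from 0. Points are libraries, horizontal lines group means and vertical lines SD. Mpp6/Gsdme and Cd59a are high in the lines with the B6 segment, Vps54 and Itgb2 in those with the D2 segment, and Tmem132c is low in D2-13B6 only.

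**Figure D2:**
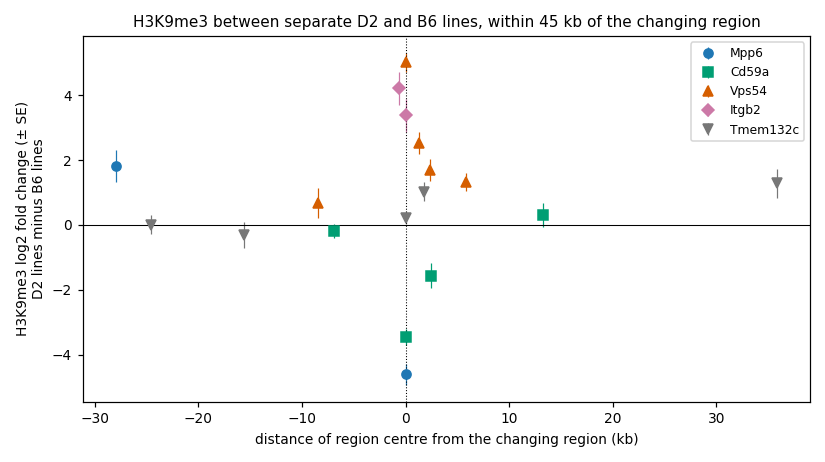
Log2 fold change of H3K9me3 between 3 D2 and 3 B6 separate lines (± SE, positive higher in D2) against the distance in kb of a region's centre from the changing region of its gene, within 45 kb. Vps54 goes from 5.02 at the changing region to 1.32 at 5.79 kb, and Cd59a from -3.46 to -1.56 at 2.49 kb.

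H3K27ac is a second mark, measured in other libraries, and was tested. In bulk samples like these, fewer cells with the mark and less of it per cell cannot be told apart. In the comparison of B6-13D2 with B6, 30 of the 86 regions of the 6 windows that passed the filter on low counts were called, beside 13.0% of all regions tested. Of these, 18 were higher and 12 lower with the D2 segment, beside 7.6% and 5.4% of all regions. The count was 15, with 12 higher, without B6 replicate 3 and 19, with 14 higher, without B6-13D2 replicate 2. In D2 against D2-13B6 this was 13 of 86, beside 6.67%, with 4 higher and 9 lower, beside 1.44% and 5.24%, and 7 without D2 replicate 2. The 9 include the Tmem132c changing region, whose value was known when the genes were chosen. Scaling by library totals, which moves the median of all regions in the first comparison from -0.06 to -0.20, gave 13 higher and 16 lower. The median over the 86 regions was -0.16 on the B6 background and -0.02 on the D2 background, beside -0.057 and 0.005 over all regions tested.

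The Mpp6/Gsdme region had more H3K27ac in the lines in which it had little H3K9me3. Levels were 8.8 and 9.14 CPM in B6-13D2 and 4.17 and 4.09 CPM in D2, against 1.45 and 1.57 CPM in B6 and 1.63 and 1.72 CPM in D2-13B6. Both lines with the D2 segment lay above both lines with the B6 segment. H3K27ac rose 5.96-fold on the B6 background (2.58 ± 0.24, adjusted p = 1.67e-11, edgeR) and 2.45-fold on the D2 background (1.29 ± 0.26, adjusted p = 0.000467, edgeR). The difference between backgrounds was 1.28 ± 0.37 (adjusted p = 0.0301, edgeR), a call that was lost under 7 alternatives, with values from 1.09 to 1.36. In the separate lines the overlapping H3K27ac region had 0.856, 1.51 and 0.76 CPM in B6 and 5.71, 6.89 and 6.05 CPM in D2 (2.58 ± 0.21, adjusted p = 9.24e-16, edgeR).

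Cd59a promoter H3K27ac was likewise higher with the D2 segment. It was 48.3 and 44.1 CPM in B6-13D2 against 15.4 and 15.9 CPM in B6, and 21.7 and 18.2 CPM in D2 against 7.73 and 7.88 CPM in D2-13B6. Within each background the groups did not overlap, but D2 lay near B6, so the level followed the background as well as the segment. H3K27ac rose 2.97-fold on the B6 background (1.57 ± 0.14, adjusted p = 5.33e-12, edgeR) and 2.58-fold on the D2 background (1.37 ± 0.16, adjusted p = 8.61e-09, edgeR). The test of the difference between backgrounds gave 0.20 ± 0.21 (adjusted p = 0.661, edgeR). D2 against B6 in these lines was 0.37 ± 0.15 (adjusted p = 0.0538, edgeR), a call gained under 11 alternatives, and in the separate lines the region over the promoter had 29.4, 27.1 and 27 CPM in B6 and 41.7, 33.9 and 35.7 CPM in D2 (0.41 ± 0.08, adjusted p = 3.33e-05, edgeR).

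All 6 regions of the Cd59a window rose in B6-13D2 against B6, and 3 rose in D2 against D2-13B6, beside 7.6% and 1.44% of all regions tested. With library totals the first count was 5. The intronic regions chr2:104098511-104099684 and chr2:104109215-104110499 rose in both, by 1.19 ± 0.14 (adjusted p = 2.26e-08, edgeR) and 1.48 ± 0.15 (adjusted p = 4.73e-10, edgeR) on the B6 background, and by 0.77 ± 0.17 (adjusted p = 0.0017, edgeR) and 0.74 ± 0.17 (adjusted p = 0.0036, edgeR) on the D2 background. The last call was lost without D2 replicate 2 (0.60, adjusted p = 0.138, edgeR). A region in front of the gene, in an intron of its paralog Cd59b (chr2:104089447-104089901), rose on the B6 background (1.22 ± 0.27, adjusted p = 0.0011, edgeR) and was 0.28 ± 0.22 on the D2 background (adjusted p = 0.586, edgeR). Its H3K9me3 was 13.3 to 15.3 CPM in B6 and 15.1 and 21 CPM in B6-13D2, so on the B6 background the H3K9me3 difference of the promoter did not extend to it. On the D2 background its H3K9me3 was 9.13 to 10.8 CPM in D2-13B6 and 8.53 to 8.95 CPM in D2. That is a small difference without overlap, in the direction of the promoter. Reads from near-identical copies of Cd59a and Cd59b could be split between them. Promoter H3K27ac was also summed over the 5 fibroblast genes listed as feeder markers, 3 of which had a region in the repeated libraries. The sum there was 6.05 to 7.37 CPM in B6, 12.1 to 14.1 CPM in B6-13D2, 9.76 to 20.5 CPM in D2-13B6 and 16.3 to 21.7 CPM in D2. In the separate lines, where 1 of the 5 had a region, it was 1.08 to 1.58 CPM in B6 and 0.963 to 1.67 CPM in D2. The part of this sum in the Cd59a and Mpp6 values was not tested.

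Vps54 had less H3K27ac at the changing region in the lines with H3K9me3 there, although much of the mark remained. It was 27.1 and 25.6 CPM in B6-13D2 against 40.8 and 46.5 CPM in B6, and 27.2 and 25.7 CPM in D2 against 51.3 and 62.6 CPM in D2-13B6. Both lines with the D2 segment lay below both lines with the B6 segment. The fall was 1.64-fold on the B6 background (-0.72 ± 0.13, adjusted p = 0.000138, edgeR) and 2.16-fold on the D2 background (-1.11 ± 0.13, adjusted p = 2.21e-08, edgeR). Without B6-13D2 replicate 2 the first was -0.60 (adjusted p = 0.0526, edgeR). Without D2-13B6 replicate 1 the second was -1.26 ± 0.16 (adjusted p = 1.78e-12, edgeR). The test of the difference between backgrounds gave 0.39 ± 0.19 (adjusted p = 0.247, edgeR). That difference passed, at 0.42, with every library kept separate (adjusted p = 0.0156, edgeR) and with the replicate block (adjusted p = 0.0137, edgeR).

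On the D2 background 8 of the 18 Vps54 regions fell, and on the B6 background 2 of 18, or 5 with library totals, beside 5.24% and 5.4% of all regions tested. The 3 neighbouring regions of the changing region fell in D2 against D2-13B6, by 0.57, 0.49 and 0.74 on the log2 scale in order of distance (adjusted p = 0.00469, 0.0117 and 5.49e-05, edgeR). Without D2 replicate 2 the nearest pair no longer passed (adjusted p = 0.102 and 0.256, edgeR), and the middle region was also lost with only the 2 lines (adjusted p = 0.0531, edgeR) and without B6-13D2 replicate 2 (adjusted p = 0.0506, edgeR). In B6-13D2 against B6 the same 3 regions had values of 0.02 ± 0.14, 0.02 ± 0.13 and -0.20 ± 0.13 (adjusted p = 0.946, 0.951 and 0.354, edgeR). The farthest of them passed with library totals (-0.32, adjusted p = 0.00491, edgeR) and when only regions averaging 20 counts or more were kept (-0.25, adjusted p = 0.0348, edgeR). The difference between backgrounds did not pass at these 3 regions, with 0.59 ± 0.20, 0.51 ± 0.18 and 0.54 ± 0.18 (adjusted p = 0.0664, 0.102 and 0.0744, edgeR), but it did in 7, 4 and 8 alternatives. In the repeated libraries, mean H3K9me3 at the same 3 regions was 2.95, 4.42 and 2.96 CPM in B6 and 8.5, 15.0 and 9.52 CPM in B6-13D2. It was 4.09, 6.67 and 8.71 CPM in D2-13B6 and 7.91, 7.01 and 8.74 CPM in D2. At the farther pair, H3K9me3 was thus close between D2 and D2-13B6, where H3K27ac fell. The separate lines have 1 region of their own list that runs over promoter, changing region and neighbours alike, with 259, 220 and 224 CPM in B6 and 172, 193 and 195 CPM in D2 (-0.33 ± 0.06, adjusted p = 2.9e-05, edgeR).

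At Tmem132c the lines with low H3K27ac were not those that differed in H3K9me3. H3K27ac at its changing region was 4.51 and 5.15 CPM in B6 and 8.34 and 5.55 CPM in D2-13B6, against 0.372 and 0.554 CPM in B6-13D2 and 0.611 and 0.682 CPM in D2. It was lower with the D2 segment in either background, whereas H3K9me3 was as high in B6 as in the lines with the D2 segment. The fall on the B6 background was 10.7-fold (-3.43 ± 0.34, adjusted p = 2.76e-10, edgeR). With a filter that ignores the groups, a mean of 20 or more counts, it was -3.50 (adjusted p = 4.62e-07, edgeR). On the D2 background, where the value was known when the genes were chosen and is given with no test, the log2 fold change was -3.39 ± 0.32, and -3.14 ± 0.32 without D2-13B6 replicate 1. B6 thus had 28.5 ± 4.55 CPM of H3K9me3 (SD, n = 3) and 4.83 ± 0.453 CPM of H3K27ac (SD, n = 2) at this region. In the whole Tmem132c window, 8 of 28 regions fell on the B6 background, beside 5.4% of all regions tested. These calls depended on the method, since over the 6 windows the lower calls of that comparison went from 12 to 2 with DESeq2. On the D2 background, no region of the Tmem132c window other than the changing one was called, beside 6.67% of all regions tested. The deposited H3K27ac list of the separate lines has no region over this place.

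At Itgb2, H3K27ac was low at the changing region, at 2.61 and 2.13 CPM in B6, 1.21 and 1.57 CPM in B6-13D2, 1.63 and 1.5 CPM in D2-13B6 and 1.11 and 1.59 CPM in D2. The value on the B6 background was -0.85 ± 0.31 (adjusted p = 0.057, edgeR), a call gained under 9 alternatives, and on the D2 background it was -0.27 ± 0.35 (adjusted p = 0.782, edgeR). The adjoining region fell on the B6 background (-1.48 ± 0.40, adjusted p = 0.00841, edgeR), though not without B6 replicate 3 (-1.22, adjusted p = 0.104, edgeR). The separate lines had a wider region over both places, with 7.65, 8.0 and 7.22 CPM in B6 and 1.48, 2.1 and 1.67 CPM in D2. It was 4.31-fold lower in D2 (-2.11 ± 0.17, adjusted p = 1.04e-15, edgeR). A region 2.42 kb farther downstream, chr10:77572016-77573539, had 14 and 17.6 CPM in B6 and 23.1 and 23.9 CPM in B6-13D2 and rose (0.60 ± 0.16, adjusted p = 0.00777, edgeR). It was 0.02 ± 0.18 on the D2 background (adjusted p = 0.974, edgeR). In the separate lines the region over it, chr10:77571385-77575306, was lower in D2 (-0.30 ± 0.09, adjusted p = 0.00513, edgeR), a call lost without D2 replicate 2 (-0.22, adjusted p = 0.0741, edgeR).

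**Figure D3:**
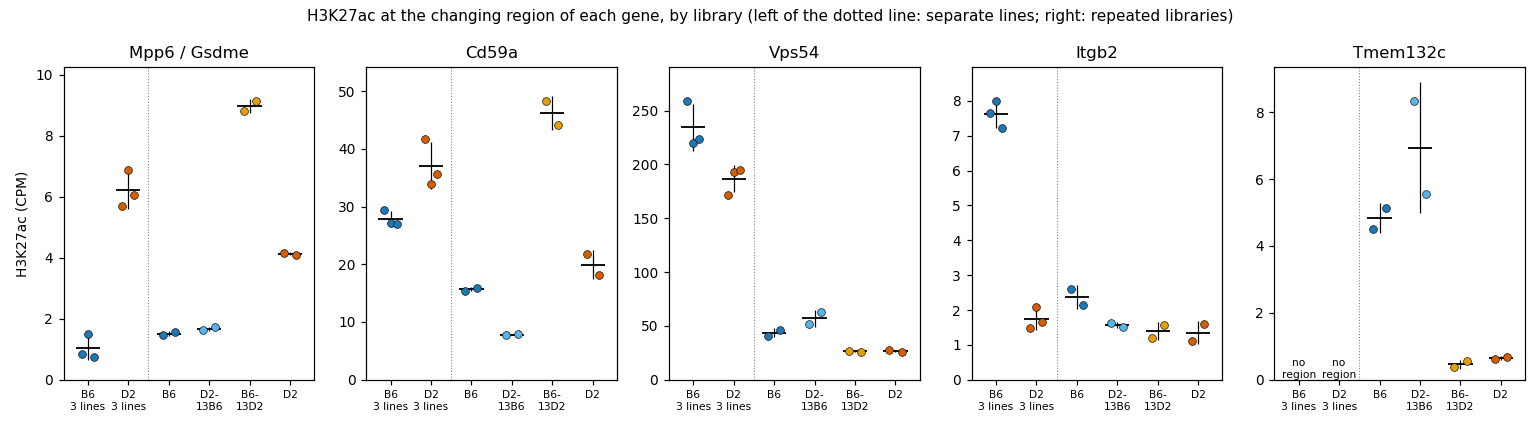
H3K27ac in CPM at the changing regions, drawn as for H3K9me3, with n = 2 per line in the repeated libraries after summing. The separate lines use the region of their own list that overlaps the changing region, which is wider at Vps54, Cd59a and Itgb2 and absent at Tmem132c, and another antibody, so levels on either side of the dotted line are not comparable.

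The promoters were compared with the changing regions for the genes that have a region within 1 kb of their start in the shared list. At Mpp6, promoter H3K27ac was 5.36 and 4.59 CPM in B6 and 7.45 and 6.09 CPM in B6-13D2, against 14.6 and 14.7 CPM in D2-13B6 and 14.7 and 13.5 CPM in D2. Both D2-background lines lay above both B6-background lines, and B6-13D2 lay above B6 by a smaller step. The segment comparisons gave 0.44 ± 0.19 (adjusted p = 0.123, edgeR) and -0.05 ± 0.16 (adjusted p = 0.929, edgeR), while D2 against B6 gave 1.48 ± 0.18 (adjusted p = 6.55e-09, edgeR). The first of these passed in 3 alternatives, at 0.45 with every library kept separate (adjusted p = 0.0332, edgeR), at 0.44 with only the 2 lines (adjusted p = 0.0241, edgeR) and at 0.44 with the replicate block (adjusted p = 0.0388, edgeR). H3K9me3 at the promoter overlapped between the separate B6 and D2 lines, with a log2 difference of 1.26 ± 0.46 that was 0.66 without B6 replicate 2.

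Promoter H3K27ac of Vps54 was 36.3 and 41.9 CPM in B6, 36.9 and 34.5 CPM in B6-13D2, 52.9 and 58.9 CPM in D2-13B6 and 47.0 and 44.4 CPM in D2. The segment comparisons were -0.12 ± 0.13 (adjusted p = 0.621, edgeR) and -0.29 ± 0.13 (adjusted p = 0.206, edgeR), smaller than at the changing region 17.57 kb away. With library totals both passed, at -0.24 in each, and the second also did with every library separate (-0.26, adjusted p = 0.0157, edgeR) and with the replicate block (-0.26, adjusted p = 0.0162, edgeR). Promoter H3K9me3 of Vps54 was at most 6.32 CPM in any library of either series. For Tmem132c, promoter H3K27ac was 3.11 and 4.03 CPM in B6, 2.28 and 3.23 CPM in B6-13D2, 3.46 and 3.44 CPM in D2-13B6 and 5.17 and 4.77 CPM in D2. Its segment comparisons were -0.38 ± 0.25 (adjusted p = 0.356, edgeR) and 0.54 ± 0.23 (adjusted p = 0.2, edgeR), while the changing region 35.98 kb away was -3.43 and -3.39. Gsdme and Itgb2 have no region within 1 kb of their start. The region there, within 2.5 kb of a transcript start, had 1.35 to 4 CPM of H3K27ac for Gsdme and 0.305 to 1.66 CPM for Itgb2 in the repeated libraries, with no call in a segment comparison.

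**Figure D4:**
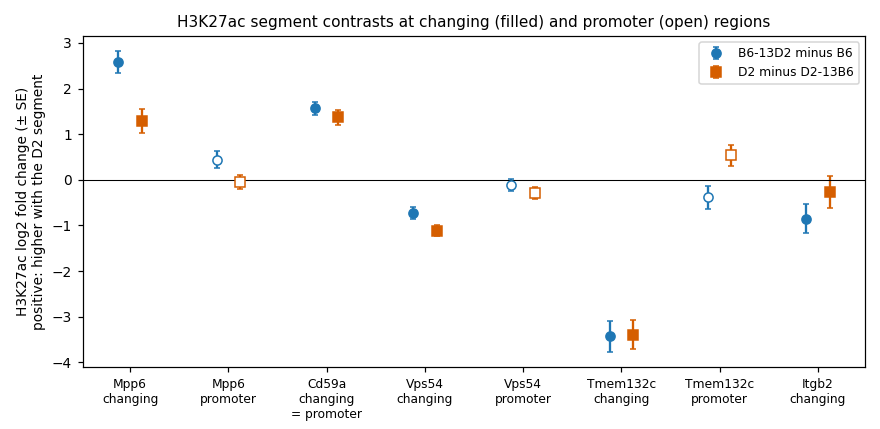
Log2 fold change of H3K27ac (± SE) with the D2 against the B6 segment, at changing regions (filled) and promoter regions (open), for the B6 background (circles) and the D2 background (squares). Changing regions reach 2.58 at Mpp6 and -3.43 at Tmem132c, and promoters of Mpp6, Vps54 and Tmem132c stay between -0.38 and 0.54.

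Mpp6 had a broad H3K27ac difference between strains. The changing region was higher in D2 than in B6 too, but there D2-13B6 lay with B6, at means of 1.67 and 1.51 CPM. No other region of the Mpp6 window was called for the segment on both backgrounds. All 18 regions of its window were higher in D2 than in B6 of the repeated libraries (over the 6 windows 34 of 86 regions were called, beside 28.1% of all regions, 21 of them higher and 13 lower, beside 14.7% and 13.4%). The strongest was chr6:50168425-50169804, in an intron 27.97 kb from the changing region, with 1.4 and 1.34 CPM in B6 and 2.19 and 2.03 CPM in B6-13D2, against 29.9 and 33.4 CPM in D2-13B6 and 31.4 and 27.6 CPM in D2. This region separated by background with no overlap, D2-13B6 lying with D2. D2 was 21.3-fold higher than B6 (4.41 ± 0.20, adjusted p = 3.91e-22, edgeR), and the segment comparisons gave 0.62 ± 0.29 (adjusted p = 0.168, edgeR) and -0.10 ± 0.13 (adjusted p = 0.796, edgeR). H3K9me3 at the same region was higher in D2 too, at 2.11, 4.35 and 2.05 CPM in the separate B6 lines and 9.05, 11.2 and 9.77 CPM in the D2 lines. These levels rest on few reads, 8 over the B6 lines and 42 over the D2 lines. In the repeated libraries the means were 1.99 CPM in B6, 1.7 CPM in B6-13D2, 7.16 CPM in D2-13B6 and 3.79 CPM in D2.

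Along the Mpp6 body the segment comparison gave calls mainly on the B6 background. In B6-13D2 against B6, 10 of 18 regions rose, the changing region and 9 others with log2 fold changes from 0.68 to 1.14, beside 7.6% of all regions tested. Those 9 had values from 0.06 to 0.23 in D2 against D2-13B6, where the changing region was the only one of the 18 to rise, beside 1.44%. Over the 6 windows, the B6-background count of 30 was 15 without B6 replicate 3 and 19 without B6-13D2 replicate 2. The difference between backgrounds itself passed at 6 of 18 regions, all positive, beside 10 of 86 over the 6 windows, 7 positive and 3 negative. Over all regions tested 5.3% passed, 3.93% positive and 1.37% negative. The count over the 6 windows was 3 without B6 replicate 3 or D2 replicate 2, 5 without B6-13D2 replicate 2 and 26 without D2-13B6 replicate 1. Summed over the 17 regions other than the changing one, H3K27ac was 64.3 ± 0.2 CPM in B6, 121 ± 1.25 CPM in B6-13D2, 179 ± 7.17 CPM in D2-13B6 and 184 ± 19.5 CPM in D2 (SD, n = 2 each). With library totals, 7 regions rose on the B6 background and 2 passed for the difference. Over the 6 windows the difference then had 4 positive and 6 negative calls, so the more common sign depended on the scaling. In the separate lines 12 of 13 H3K27ac regions of the window were higher in D2 (24 of 44 over the 6 windows, 19 higher and 5 lower, beside 49.3% of all regions tested, 24.3% higher and 25% lower), and the region over the intronic peak, chr6:50164080-50173727, had 10.7, 11.6 and 11.3 CPM in B6 and 44.8, 50.6 and 46.4 CPM in D2 (2.08 ± 0.09, adjusted p = 1.22e-27, edgeR).

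Gsdme, which overlaps the end of Mpp6 on the opposite strand, showed strain differences of the same sign. Near its own start, chr6:50260941-50262572 in the list of the separate lines had 3.42, 3.34 and 3.1 CPM of H3K27ac in B6 and 7.06, 5.9 and 5.65 CPM in D2 (0.91 ± 0.16, adjusted p = 2.57e-06, edgeR). The strains did not overlap there. In the repeated libraries the matching region, chr6:50260912-50262704, gave -0.31 ± 0.30 and -0.37 ± 0.25 in the segment comparisons (adjusted p = 0.567 and 0.504, edgeR) and 0.60 ± 0.28 for D2 against B6 (adjusted p = 0.105, edgeR), which passed with only the 2 lines (0.59, adjusted p = 0.0415, edgeR) and without D2-13B6 replicate 1 (0.65, adjusted p = 0.0361, edgeR). At chr6:50177530-50180866, which lies in the overlap of both windows, the separate D2 lines were 1.14 ± 0.11 higher (adjusted p = 2.05e-12, edgeR).

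**Figure D5:**
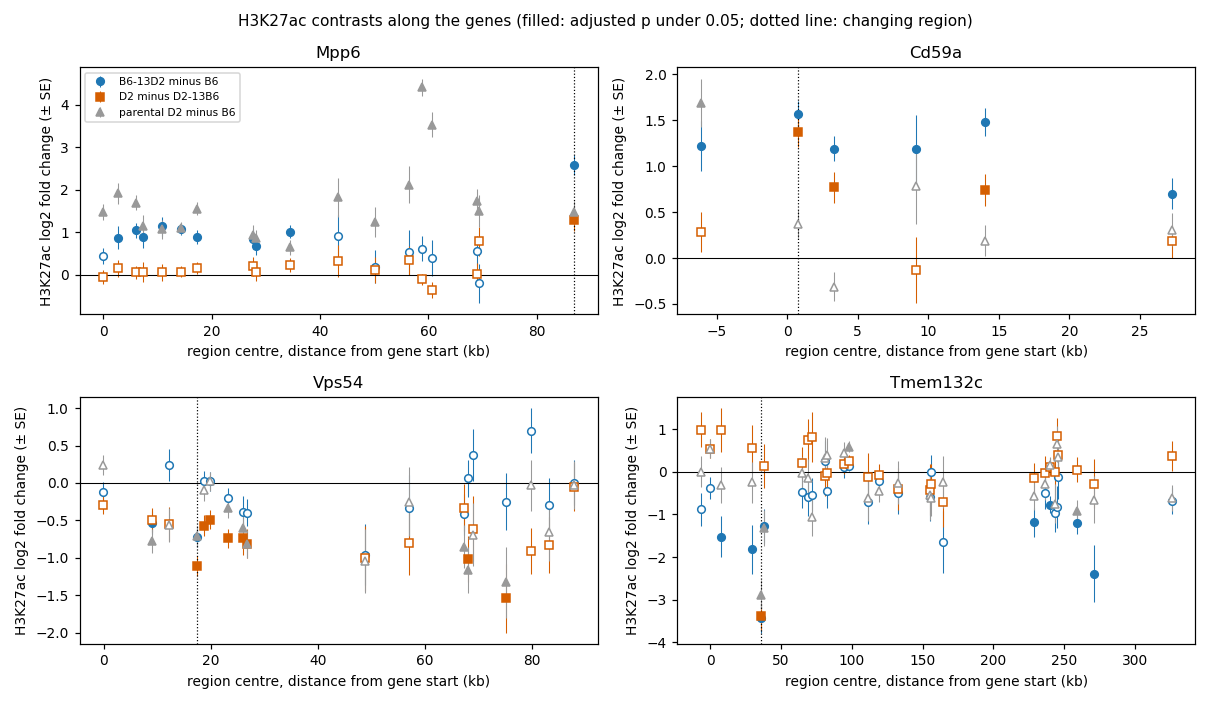
Log2 fold change of H3K27ac (± SE) against the distance in kb of a region's centre from the gene start, for 3 comparisons of the repeated libraries; filled symbols passed an adjusted p of 0.05 and the dotted line marks the changing region. In Mpp6 the D2-background values lie between -0.35 and 0.79 except at the changing region (1.29), while D2 against B6 reaches 4.41.

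In H3K9me3 between the separate lines, 6 of the 11 Tmem132c regions tested passed, 3 higher and 3 lower in D2, beside 34.7%, 17.3% and 17.4% of all regions tested, and the changing region was not among them. The 2 named here lie far from it. At chr5:127506439-127506965, H3K9me3 was 22.2, 25 and 16.4 CPM in the separate B6 lines and 6.58, 3.12 and 3.76 CPM in the D2 lines (-2.25 ± 0.37). At chr5:127500462-127501075 it was the reverse, with 8.45, 12 and 8.2 CPM in B6 and 19.7, 21.2 and 24.1 CPM in D2 (1.18 ± 0.30). The strains did not overlap at either region. Both regions lie in introns of Tmem132c, 228.73 and 222.79 kb from the changing region. In the repeated libraries the first had 20.6 to 24.3 CPM in B6 and 2.74 to 8.99 CPM in the other 3 lines. H3K27ac at the second fell in B6-13D2 against B6 (-1.21 ± 0.26, adjusted p = 0.000786, edgeR), though not with DESeq2 (-1.14, adjusted p = 0.0531), and was 0.05 ± 0.29 in D2 against D2-13B6 (adjusted p = 0.965, edgeR).

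Regions elsewhere in the genome whose H3K9me3 over the 10 repeated libraries correlated best with each changing region, outside chromosomes 13, X and Y, are given as a description, since these libraries share depth and line. The closest to Mpp6/Gsdme was chr5:145290451-145291379, over a coding exon of Zscan25 (Pearson r = 0.973). Chr11:62506163-62514980, over a coding exon of Pigl, was among the 3 closest to both Mpp6/Gsdme (0.957) and Cd59a (0.980), with means of 166 CPM in B6, 49.0 in B6-13D2, 119 in D2-13B6 and 55.8 in D2. For Vps54 it was chr9:96790421-96791881, 31.5 kb from Pxylp1 (0.984), and for Itgb2 chr10:61062822-61063841, 25.5 kb from Pcbd1 (0.972). The Tmem132c pattern recurred at chr1:61368174-61369087 (0.991), with 29.9 CPM in B6, 29.6 in B6-13D2, 6.5 in D2-13B6 and 25.6 in D2.

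Other genes of the same families and complexes were described at their promoters by H3K27ac. Of 35 such genes, among them Vps51, Vps52 and Vps53 of the GARP complex, the other p55 scaffolds, gasdermins and beta integrins, 28 had a promoter region. Of the 28 regions tested, 1 rose in B6-13D2 against B6 and 2 fell in D2 against D2-13B6, with medians of 0.00 and -0.08. In D2 against B6, 13 rose and none fell, with a median of 0.44. Over all regions tested, 7.6% rose in the first comparison, 5.24% fell in the second and 14.7% rose in the third. The list was described only and not tested as a set.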

How the data were processed

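H3K9me3 and H3K27ac were measured by ChIP-seq in 34 libraries of 12 groups after MNase digestion, with 75 bp reads. The 4 deposited tables hold read counts per region, with duplicates removed per the file headers. Per the submitters' processing notes, the tools were Trimmomatic 0.39, HISAT2 2.2.1, MACS 1.4.2, bedtools 2.9.2 and edgeR, and the genome was mm10, which derives from C57BL/6J. How the region lists were made is not given in the sources used here. Region starts in the names are counted from 0, and 1 was added. A further 2 columns matched no sample and were not used. Replicate pairs were compared by chi-square over regions with at least 40 counts, and H3K27ac pairs within sampling noise were summed.

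Each table was filtered with filterByExpr (minimum count 10, minimum total 15), scaled by TMM and tested with edgeR 4.0.16 (R 4.3.3, quasi-likelihood, all lines of a table in 1 fit, Benjamini-Hochberg adjustment over all regions, threshold 0.05). The code was tested on simulated data. DESeq2 1.42.0, other scalings, filters, windows and sample sets were alternatives. Members and lists were chosen with earlier results of these data known. Besides changing and promoter regions, up to 3 called regions per gene with the smallest adjusted p were named. Intervals of count ratios cover counting error only.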

Additional observations from a re-analysis of the deposited data

Results flagged for a closer look

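At the Mpp6/Gsdme changing region (chr6:50196338-50197829), the H3K27ac difference between D2 and B6 segment was larger in the B6 than in the D2 background by 1.28 ± 0.37 on the log2 scale in the test of that difference (adjusted p = 0.0301, edgeR). It no longer passed with library totals (1.09, adjusted p = 0.067), with DESeq2 (1.33, adjusted p = 0.0771), or without any of B6-13D2 replicate 2 (1.36), B6 replicate 2 (1.09), B6 replicate 3 (1.36), D2-13B6 replicate 2 (1.19) and D2 replicate 2 (1.29). Without D2-13B6 replicate 1, the library that stood apart, it was 1.36 (adjusted p = 0.0138, edgeR).

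At chr5:127500462-127501075 in an intron of Tmem132c, H3K27ac was 4.61 and 3.47 CPM in B6 and 1.77 and 1.85 CPM in B6-13D2, but 2.13 and 2.11 CPM in D2-13B6 and 2.28 and 2.05 CPM in D2. The test of the difference between backgrounds gave -1.26 ± 0.39 (adjusted p = 0.0461, edgeR). It no longer passed under 10 alternatives, among them DESeq2 size factors (-1.20, adjusted p = 0.0592), no filter (-1.22, adjusted p = 0.078) and leaving out B6-13D2 replicate 2 (-1.18, adjusted p = 0.159), B6 replicate 1 (-1.21), B6 replicate 3 (-1.36) or any 1 of the 3 D2 replicates.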

How the results depend on the processing

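No value changed its direction past the threshold. Over the named regions 2164 values stayed called or stayed uncalled, 92 gained a call and 55 lost one. The 1 further value, which moved, was the number of promoter regions. Counts are regions called, with those of the 6 windows after "windows". With a mean of at least 20 counts, which tests fewer regions, H3K9me3 calls went from 15525 to 6650 in the strain comparison (windows 17 to 6), from 1470 to 830 on the B6 background (windows 8 to 3) and from 1915 to 1115 on the D2 background (windows 7 to 4). DESeq2 called 9620 for H3K9me3 between strains, 634 on the B6 background (windows 4) and 737 on the D2 background (windows 4). For H3K27ac it called 10576 on the B6 background against 24973 (windows 14 against 30), 6212 on the D2 background against 12824, 30359 between parental lines against 53945, and 5414 for the difference between backgrounds against 10176 (windows 4 against 10). The cause was not tested. With every H3K27ac library kept separate the counts were 37725, 20626 and 21132 (windows 21) on the B6 background, the D2 background and their difference. With only the 2 lines of the comparison they were 41932 on the B6 background and 7818 on the D2 background (windows 8). No filter left 6 window regions for the difference, and promoters within 2.5 kb gave 8 regions.

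Same-numbered libraries shared no deviation, with correlations from -0.066 to 0.049, except H3K9me3 repeated libraries (-0.044 to 0.196). With the replicate block, H3K27ac calls were 20316 on the D2 background and 20667 for the difference (windows 20), close to those with every library separate and no block. H3K9me3 strain calls with the block were 14508 and H3K27ac strain calls 47711.

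Leaving out 1 replicate gave 13451 to 15337 H3K9me3 strain calls (windows 12 to 16) and 40681 to 46596 for H3K27ac (windows 22 to 23). H3K27ac calls were 13878 to 35600 on the B6 background (windows 15 to 31), 7110 to 16345 on the D2 background (windows 7 to 14), 39141 to 63287 between parental lines (windows 27 to 40) and 4401 to 22495 for the difference (windows 3 to 26). H3K9me3 calls were 827 to 1831 (windows 5 to 9) and 727 to 2649 (windows 5 to 7) in the B6 and D2 backgrounds. H3K27ac window counts moved by over 1.5 times without B6-13D2 replicate 2 or B6 replicate 3 on the B6 background, and without D2 replicate 2 on the D2 background. For the difference they did so without B6-13D2 replicate 2, B6 replicate 3, D2 replicate 2 or D2-13B6 replicate 1. The H3K9me3 window count on the B6 background did so without B6-13D2 replicate 1. An arm left with 1 sample was assumed to vary like the others. Library totals lowered the share of higher calls from 58.5% to 38.5% on the B6 background, from 52.3% to 40.3% between parental lines and from 74.2% to 48.7% for the difference, and raised it from 49.8% to 61.5% for H3K9me3 strain calls. Among the changing regions, H3K9me3 counts were lowest at Itgb2, with 3 reads over the 3 repeated B6 libraries.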
